A study of Bos taurus with 179 samples.

Results

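The comparison covers bovine oocytes between 80 and 99 μm in diameter and oocytes between 100 and 109 μm, which made up 63 of the 165 oocytes that the study retained after quality control. Oocytes were taken by their labelled size group and by the study's list of retained oocytes, and no expression level of a gene entered that choice here, although the study's list had itself been made from read numbers, genes detected and mitochondrial reads. The smaller group held 45 oocytes, 24 of 80–89 μm (80.5 to 89.13 μm) and 21 of 90–99 μm (90.28 to 99.5 μm). The larger group held 18 oocytes, with diameters from 101 to 109.63 μm. All were untreated Bos taurus oocytes from abattoir ovaries, stripped of the surrounding cells and frozen one by one. The study's methods describe aspiration of surface follicles for fully grown oocytes and slicing of the cortex, in a medium with the phosphodiesterase inhibitor cilostamide, for growing ones, and the labels do not give the way in which each oocyte was obtained. Polyadenylated mRNA of each oocyte was captured, amplified and sequenced, and the deposited values were raw read counts per gene. Libraries were made in 2 replicates that also differed in read length, so that library batch and read length cannot be told apart. Replicate 1 held 28 of the 45 smaller and 11 of the 18 larger oocytes, and replicate 2 held 17 and 7. No animal was named, so oocytes from the same animal could not be recognised, and p-values measure the spread between these samples.

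While it grows inside its follicle, an oocyte is arrested in prophase of the first meiotic division and stores mRNA and proteins for maturation and the first cleavages. Transcription slows and then largely stops as the oocyte approaches full size, and the ability to resume meiosis is gained over the same period. Mitochondria multiply during growth, and their own small genome encodes some of the subunits of the respiratory chain and of ATP synthase, whereas the nucleus encodes the others.

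Total counts per oocyte ranged from 277126 to 5434763 at 80–99 μm, with a median of 1618959, and from 349196 to 7856854 at 100–109 μm, with a median of 923622. The difference did not pass (log10 difference of -0.164, adjusted p = 0.145, permutation test within replicate), but without the deepest oocyte of 100–109 μm it did (-0.214, adjusted p = 0.0404, permutation test), and its part in the results below was not tested beyond the values at equal depth. This oocyte, of replicate 1, gave 52.9% of the counts of that group and replicate. It was also less like the other oocytes of its group: its median Spearman correlation with the other 10 was 0.861 at equal depth, and the median over all pairs of that group and replicate was 0.898. Results are therefore given with and without it. At 250000 counts per oocyte, the number of genes detected ranged from 8218 to 10753 at 80–99 μm and from 8940 to 10405 at 100–109 μm, with 169 more genes in the mean at 100–109 μm, which did not pass (adjusted p = 0.475, permutation test). The sign turned in replicate 1 alone (-111 genes) and without thinning (-169 genes).

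Transcripts of CCL25, AKR1A1, ACOT8, CTSC and CKB were between 2.3-fold and 4.41-fold higher in oocytes of 100–109 μm in the summed counts. Counts were added up within each size group of a replicate, and edgeR's quasi-likelihood test with the replicate as a block was applied over 14087 genes. At 100–109 μm, 61 genes were upregulated (0.433% of genes tested) and 9 were downregulated (0.0639%), together 0.497%. Log2 fold changes ran from 1.1 to 4.4 among the upregulated genes and the smallest change among the downregulated genes was -1.54. All 70 had the same direction in both replicates, although a call made on these same sums favours such genes. The calls were lost when any of several sums, or a single oocyte, was left out. Without the deepest oocyte of 100–109 μm, no gene passed edgeR's test in either direction, and 1220 genes had an unadjusted p below 0.05, 585 higher and 635 lower at 100–109 μm, where with it 1347 were higher and 916 lower. The log2 fold changes in those sums were still 1.99 for CCL25, 1.4 for AKR1A1 and 1.26 for ACOT8, beside 1.13 for ARRDC2 and 0.93 for CTSC, which had been at 2.01 and 1.5. No gene passed either without the replicate 2 sum of 80–89 μm (1529 genes at an unadjusted p below 0.05), the replicate 2 sum of 90–99 μm (1457) or the replicate 1 sum of 100–109 μm (776).

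With single oocytes in place of sums, 529 genes were upregulated (5.48% of 9657 tested) and 476 were downregulated (4.93%), together 10.4%. Without the deepest oocyte, 3.08% of 9622 genes were upregulated and 2.66% (256 genes) were downregulated, together 5.74%. In that fit oocytes of 1 animal count as separate samples, so its p-values can be too small. Of the 61 genes upregulated in the sums, 56 were tested over single oocytes, where 55 passed with the deepest oocyte and 38 without it. For the downregulated genes the numbers were 5 tested, 4 and 3. The median log2 fold change of the 56 genes was 1.69 in the sums, 1.19 over single oocytes and 0.99 over single oocytes without the deepest. Among the 61 upregulated genes, the deepest oocyte had the highest level of the 11 oocytes of its group and replicate for 53 genes (86.9%), against 24.2% of all genes tested.

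The chemokine CCL25 (ENSBTAG00000005581) ranged from 8.29 to 258.5 CPM (counts scaled to the library size) at 80–99 μm in replicate 1, with a median of 41.6, and from 87.7 to 247 CPM at 100–109 μm, with a median of 130. In replicate 2 it ranged from 0 to 32.5 CPM (median 8.2) and from 8.27 to 108 CPM (median 72.6). All 18 larger oocytes lay above the 80–99 μm median of their replicate, although the groups overlapped. Its log2 fold change was 2.14 ± 0.35 (SE, adjusted p = 0.023) in the sums, and 1.74 over single oocytes both with the deepest oocyte (adjusted p = 0.000161) and without it (adjusted p = 0.000372).

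AKR1A1 (ENSBTAG00000000497), an aldehyde reductase, had a median of 116 CPM (26.2 to 327.4) at 80–99 μm and 254 CPM (146.6 to 557) at 100–109 μm in replicate 1. The medians in replicate 2 were 21.7 CPM (5.5 to 93.1) and 91 CPM (25.7 to 186). Here too 18 of 18 larger oocytes were above the smaller oocytes' median. Its log2 fold change was 1.37 ± 0.28 (adjusted p = 0.0317) in the sums and 1.35 over single oocytes without the deepest (adjusted p = 0.000372).

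ACOT8 (ENSBTAG00000020371) encodes a peroxisomal thioesterase that splits acyl-CoA. It went from a median of 50.4 CPM (3.34 to 95.5) to 108 CPM (59.8 to 149) in replicate 1, and from 13.4 CPM (1.56 to 69.1) to 43.1 CPM (17.8 to 80.3) in replicate 2. Of the 11 larger oocytes of replicate 1, 9 exceeded every smaller oocyte, as did 2 of 7 in replicate 2. The log2 fold change was 1.3 ± 0.27 (adjusted p = 0.0381) in the sums and 1.21 over single oocytes without the deepest (adjusted p = 0.000372). With the deepest oocyte the single-oocyte values were 1.32 for AKR1A1 and 1.2 for ACOT8, so leaving it out hardly moved either gene.

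CKB (ENSBTAG00000035998), the brain-type creatine kinase that regenerates ATP from phosphocreatine, had a median of 142 CPM (17.6 to 321) at 80–99 μm and 213.2 CPM (143 to 405) at 100–109 μm in replicate 1. The replicate 2 medians were 24.9 CPM (1.38 to 69.1) and 62.4 CPM (16.1 to 190). Its log2 fold change was 1.2 ± 0.26 (adjusted p = 0.0433) in the sums and 1.01 without the deepest oocyte over single oocytes (adjusted p = 0.00643).

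**Figure D1:**
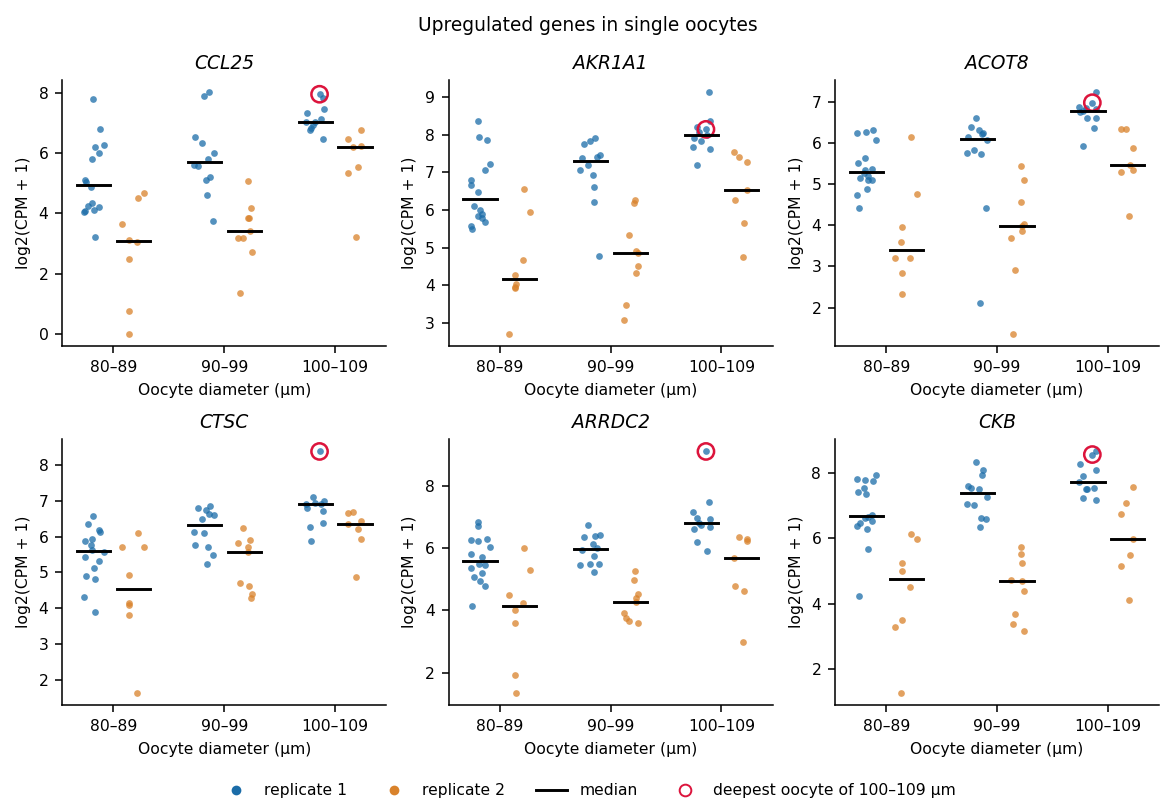
Level of 6 upregulated genes in each oocyte, as log2(CPM + 1) on the vertical axis, by size group and replicate; black bars are medians and the red circle marks the deepest oocyte of 100–109 μm. In both replicates the 100–109 μm medians lie above those of 80–89 and 90–99 μm, and for CTSC and ARRDC2 the deepest oocyte lies above all others, at 331 and 549 CPM.

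Other upregulated genes had their highest level in the deepest oocyte. CTSC (ENSBTAG00000011100), the lysosomal protease cathepsin C, had a median of 55.6 CPM (13.8 to 114.5) at 80–99 μm and of 118 CPM at 100–109 μm in replicate 1, where the deepest oocyte held 331 CPM and the other 10 reached at most 135 CPM. In replicate 2 the medians were 29.3 CPM (2.1 to 74.4) and 81.2 CPM (28.3 to 102). It was higher than the smaller oocytes' median in 17 of 18 larger oocytes. The log2 fold change was 1.5 ± 0.29 (adjusted p = 0.0309) in the sums and 0.89 over single oocytes without the deepest (adjusted p = 0.00277).

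ARRDC2 (ENSBTAG00000039335), an arrestin-domain protein, stood at 549 CPM in the deepest oocyte and at 178 CPM or less in the other 10, and the deepest oocyte supplied 82.5% of its counts in that sum. The 80–99 μm medians were 54.3 CPM (16.7 to 112) in replicate 1 and 18 CPM (1.54 to 62.8) in replicate 2, and the 100–109 μm medians were 111 and 49.9 CPM. Its log2 fold change fell from 2.01 ± 0.34 (adjusted p = 0.023) in the sums to 1.13 in the sums without the deepest (adjusted p = 0.32). Over single oocytes it was 1.3 with the deepest (adjusted p = 0.000127) and 1.05 without it (adjusted p = 0.00148).

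ALAS1 (ENSBTAG00000004118), the first enzyme of heme synthesis, had medians of 28.5 CPM (6.53 to 52.3) and 54.4 CPM (23.9 to 149) in replicate 1 and of 6.4 CPM (0.692 to 12.6) and 16.6 CPM (8.44 to 21.5) in replicate 2. The 149 CPM belonged to the deepest oocyte. Log2 fold changes were 1.58 ± 0.31 (adjusted p = 0.0309) in the sums and 0.95 over single oocytes without it (adjusted p = 0.00427).

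ELF3 (ENSBTAG00000008756), an ETS-family transcription factor known from epithelia, had medians of 39.1 CPM (2.33 to 95.5) and 60.1 CPM (13.2 to 288) in replicate 1 and of 9.74 CPM (0 to 99.4) and 51.6 CPM (31.3 to 106) in replicate 2. It lay above the smaller oocytes' median in 14 of 18 larger oocytes, fewer than for CCL25. The log2 fold change was 2.17 ± 0.44 (adjusted p = 0.0309) in the sums and 1.27 over single oocytes without the deepest (adjusted p = 0.0175).

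CLU (ENSBTAG00000005574), which encodes the secreted chaperone clusterin, had a log2 fold change of 1.54 ± 0.28 (adjusted p = 0.0294) in the sums. It passed over single oocytes (1.03, adjusted p = 0.0352) and not without the deepest oocyte (0.88, adjusted p = 0.103). CNKSR1 (ENSBTAG00000019399), a scaffold of Ras signalling, stood at 46.6 CPM in the deepest oocyte and at 12.3 CPM or less in the other 10, and that oocyte gave 86.1% of its counts in the sum. Its log2 fold change of 2.4 ± 0.48 (adjusted p = 0.0309) became 1.35 in the sums without the deepest oocyte (adjusted p = 0.501), and it was too low to be tested over single oocytes.

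When every oocyte was thinned to 250000 counts before summing, 10 genes were upregulated and 3 downregulated. CCL25 (1.63, adjusted p = 0.0235), AKR1A1 (1.35, adjusted p = 0.0235) and ARRDC2 (1.25, adjusted p = 0.0317) passed at that equal depth. ACOT8 (1.19, adjusted p = 0.055), CKB (1.11, adjusted p = 0.0623) and ELF3 (1.37, adjusted p = 0.0567) did not pass, nor did CTSC (0.93, adjusted p = 0.141), ALAS1 (1.06, adjusted p = 0.17), CLU (1.02, adjusted p = 0.24) and CNKSR1 (1.92, adjusted p = 0.223).

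**Figure D2:**
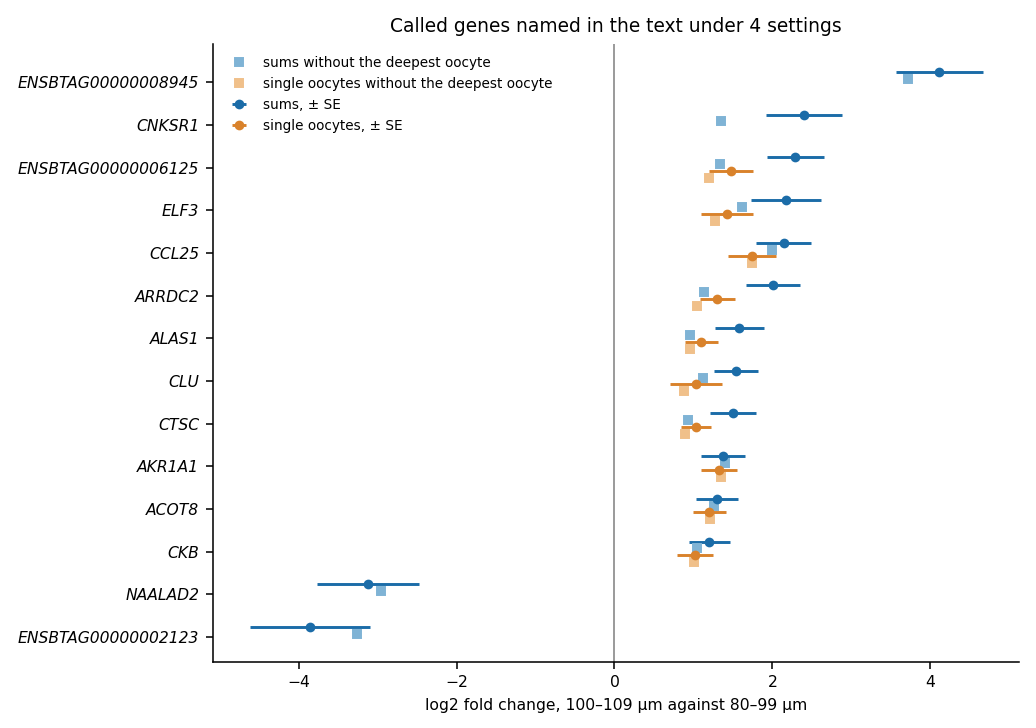
Log2 fold change (horizontal axis, 100–109 μm against 80–99 μm) of the called genes named in the text, in the sums and over single oocytes, with and without the deepest oocyte; bars are standard errors, and genes with only blue symbols were too low to be tested over single oocytes. Over single oocytes CCL25 is at 1.74 with and without that oocyte, whereas ARRDC2 goes from 1.3 to 1.05 and CTSC from 1.03 to 0.89; ENSBTAG00000001571, at 0 counts in both 100–109 μm sums, is left out.

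Among the genes with no symbol in the sources used here, ENSBTAG00000008945 had the smallest adjusted p. It was at 0 in 19 of 28 smaller oocytes of replicate 1 and in 15 of 17 of replicate 2, and at 0 in 3 larger oocytes of each replicate, with larger-oocyte medians of 5.01 and 2.3 CPM. The log2 fold change was 4.11 ± 0.55 (adjusted p = 0.0122) and 3.72 in the sums without the deepest oocyte (adjusted p = 0.061). ENSBTAG00000006125 had a log2 fold change of 2.29 ± 0.36 (adjusted p = 0.023) and of 1.2 over single oocytes without the deepest (adjusted p = 0.00574).

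The downregulated genes described here were low, with no oocyte above 37.4 CPM. NAALAD2 (ENSBTAG00000000284), a peptidase of the glutamate carboxypeptidase family and the only downregulated gene with a symbol, had a median of 2.49 CPM (0 to 9.04) at 80–99 μm in replicate 1 and of 4.25 CPM (0 to 25) in replicate 2. At 100–109 μm both medians were 0, with highest values of 2.27 and 4.69 CPM, and 11 of the 18 oocytes had no count, as had 13 of the 45 smaller ones. Its log2 fold change was -3.12 ± 0.65 (adjusted p = 0.0376), and -2.96 without the deepest oocyte (adjusted p = 0.265), and it was -1.66 at 250000 counts per oocyte (adjusted p = 0.422).

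ENSBTAG00000001571 had a mean level of 1.33 CPM in the 80–89 and 90–99 μm sums of replicate 1 and of 4.6 CPM in those of replicate 2, and 0 counts in all 18 larger oocytes. It was also at 0 in 28 of the 45 smaller oocytes, with 90–99 μm medians of 0 in both replicates and a highest value of 22.1 CPM. With a floor of 3 counts per sum, the larger oocytes were at least 7.07-fold lower in replicate 1 and at least 16.5-fold lower in replicate 2, for counting error only. ENSBTAG00000002123 had a log2 fold change of -3.86 ± 0.76 (adjusted p = 0.0309), with 13 of 18 larger oocytes at 0 and 19 of 45 smaller ones. Its value was -3.26 without the deepest oocyte (adjusted p = 0.315) and -2.3 at 250000 counts per oocyte (adjusted p = 0.279). CLGN, a chaperone of the endoplasmic reticulum, did not pass in the sums (-1.16, adjusted p = 0.0963) but did over single oocytes without the deepest (-0.77, adjusted p = 0.00776). Likewise ATXN7L3B had -1.18 (adjusted p = 0.0939) and -0.8 (adjusted p = 0.0111), and CFAP43, a protein of motile cilia, was at -1.21 in the sums (adjusted p = 0.0826), at -0.93 over all single oocytes (adjusted p = 0.0297) and at -0.92 without the deepest (adjusted p = 0.053). CCDC158 was at -2.15 (adjusted p = 0.0743) and was not tested over single oocytes.

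Transcripts of the mitochondrial genome were lower at 100–109 μm over single oocytes. Of the 13 respiratory genes of that genome, COX1, COX2, ATP6 and ATP8 could be paired with an ID. COX1 and COX2 encode subunits of cytochrome c oxidase, and ATP6 and ATP8 encode subunits of ATP synthase from overlapping stretches, so that reads could be split between the latter pair. Their summed level in replicate 1 had a median of 7410 CPM (2916 to 19770) at 80–99 μm and of 3840 CPM (2332 to 5248) at 100–109 μm. Replicate 2 had medians of 11646 CPM (6224 to 40448) and 4750 CPM (3878 to 13657). The smaller groups differed from each other, with medians of 7841 CPM at 80–89 μm and 4665 CPM at 90–99 μm in replicate 1, and of 12958 and 9615 CPM in replicate 2, so the step from 90–99 to 100–109 μm was the smaller one in replicate 1. The larger oocytes lay below the smaller oocytes' median in 11 of 11 and 5 of 7 cases. The mean log2 difference over both replicates was -0.993 (adjusted p = 8e-05, two-sided permutation test within replicate, where the unadjusted p of 1e-05 is the smallest that 100000 permutations can give). It was -0.925 in replicate 1 alone (adjusted p = 0.00376, permutation test), -1.06 in replicate 2 alone (adjusted p = 0.0289, permutation test) and -0.973 without the deepest oocyte, which itself stood at 2796 CPM. In this test too, oocytes of 1 animal count as separate samples, so its p-values can be too small.

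COX1 had a median of 2684 CPM at 80–99 μm and 1158 CPM at 100–109 μm in replicate 1, and of 4295 and 1299 CPM in replicate 2. None of the 4 genes passed in the sums, where COX1 had a log2 fold change of -1.38 ± 0.45 (adjusted p = 0.156), COX2 of -1.15 ± 0.38 (adjusted p = 0.159), ATP8 of -1.03 ± 0.4 (adjusted p = 0.225) and ATP6 of -0.82 ± 0.39 (adjusted p = 0.306). Over single oocytes all 4 were downregulated with and without the deepest oocyte, beside 4.93% and 2.66% of all genes tested, and without the deepest oocyte COX1 was at -1.36 (adjusted p = 0.0022) and COX2 at -0.9 (adjusted p = 0.00574). The study had removed oocytes by, among other limits, their share of noncoding mitochondrial reads. Over all deposited oocytes of these groups the log2 difference of the summed level was -0.804 (unadjusted p = 3e-05, permutation test). There CPM was scaled by total counts and not by TMM, so both the oocytes and the scaling differed.

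**Figure D3:**
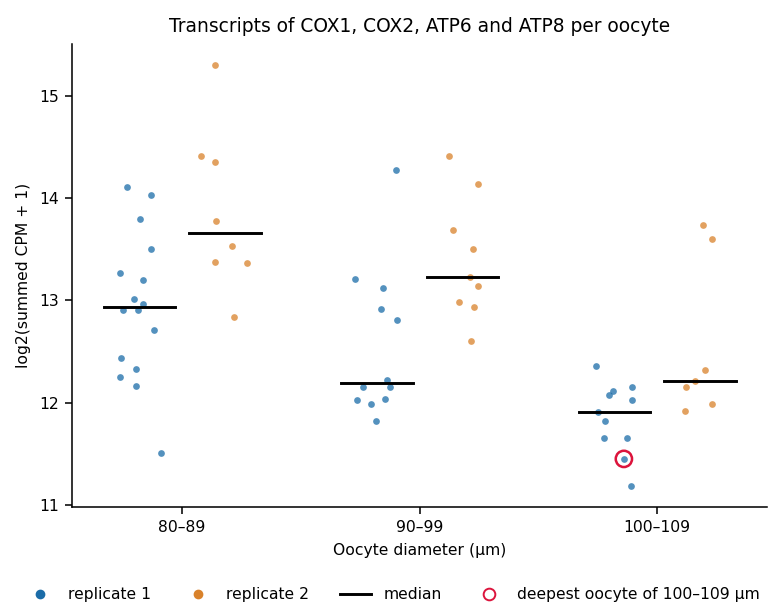
Summed level of COX1, COX2, ATP6 and ATP8 in each oocyte, as log2(summed CPM + 1) on the vertical axis, by size group and replicate; black bars are medians and the red circle marks the deepest oocyte. The 100–109 μm median is the lowest of the 3 groups in each replicate, 3840 CPM in replicate 1 and 4750 CPM in replicate 2, and 1 oocyte of 80–89 μm in replicate 2 reaches 40448 CPM.

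The nuclear genes of ATP synthase and cytochrome c oxidase had log2 fold changes below 0 for 22 of 26 members, with a median of -0.52, beside a median of -0.03 over all 14087 genes, of which 7331 were below 0. The list median was -0.36 in the sums without the deepest oocyte, and -0.33 and -0.28 over single oocytes with and without it. The medians of all genes there were -0.03, -0.03 and -0.02. No member passed in the sums, and over single oocytes 3 of 25 were downregulated (2 without the deepest oocyte) and none was upregulated, beside 4.93% and 5.48% of all genes tested in that fit (2.66% and 3.08% without the deepest). COX6C, a small subunit of cytochrome c oxidase, was at -0.88 in the sums (adjusted p = 0.293) and -0.77 over single oocytes without the deepest (adjusted p = 0.0478). ATP5PO, of the stalk of ATP synthase, was at -0.61 (adjusted p = 0.295) and -0.51 (adjusted p = 0.0339). ATP5F1C, its central gamma subunit, was near 0, at -0.1 (adjusted p = 0.871).

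**Figure D4:**
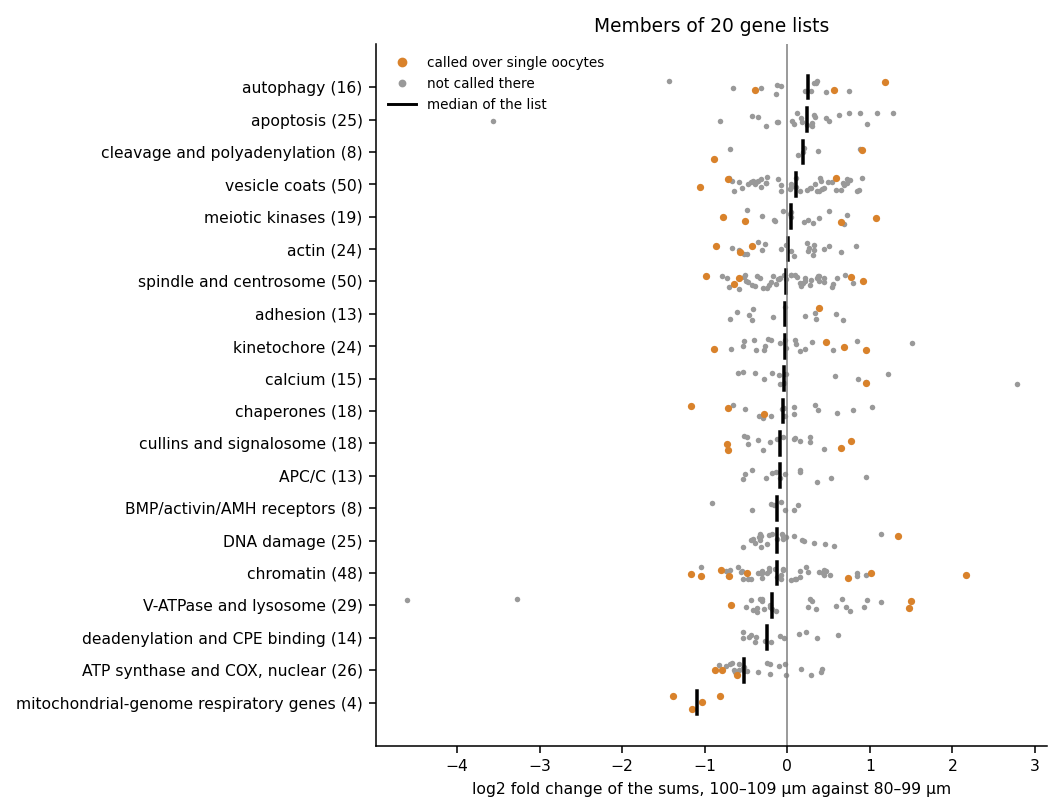
Log2 fold change in the sums (horizontal axis) of each tested member of 20 gene lists, with the number of members tested in parentheses; orange points passed over single oocytes and black bars are the medians of the lists. The median of the 4 mitochondrial-genome genes is -1.09 and that of the 26 nuclear ATP synthase and cytochrome c oxidase genes is -0.52, whereas the other 18 medians lie between -0.24 and 0.25. Without the deepest oocyte the first 2 medians are -0.91 and -0.36.

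Of 19 regulators of the CDK1 and cyclin B kinase, which drives the resumption of meiosis, none passed in the sums, with a list median of 0.05. Over single oocytes 2 were upregulated and 2 downregulated (1 and 1 without the deepest oocyte), beside 5.48% and 4.93% of all genes (3.08% and 2.66% without it). CDC25B, the phosphatase that activates CDK1, had medians of 60.2 CPM (12.9 to 133) and 115 CPM (43.1 to 130) in replicate 1 and of 21.8 CPM (10.5 to 51.3) and 41.8 CPM (22.5 to 78.3) in replicate 2. It was upregulated over single oocytes, at 0.88 without the deepest (adjusted p = 0.00121), and was at 1.08 in the sums (adjusted p = 0.0826). ARPP19, an inhibitor of the phosphatase that opposes CDK1, was downregulated there, at -0.54 (adjusted p = 0.022), with 10 of 11 and 6 of 7 larger oocytes below the smaller oocytes' median. CCNB1, the cyclin partner of CDK1, was at -0.05 in the sums (adjusted p = 0.939). CDC25B and ARPP19, and the members named in the next paragraph from the single-oocyte fit, were chosen after their values were seen.

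Of 24 kinetochore and chromosomal passenger genes, none passed in the sums and 23 were tested over single oocytes. There 3 were upregulated and 1 was downregulated (2 and 1 without the deepest oocyte), beside 5.48% and 4.93% of all genes (3.08% and 2.66% without it). AURKC and CDCA8 belong to the chromosomal passenger complex, which corrects the attachment of chromosomes to the spindle. Over single oocytes without the deepest, AURKC was at 0.65 (adjusted p = 0.0149) and CDCA8 at 0.32 (adjusted p = 0.0269), and for each gene all 18 larger oocytes lay above the smaller oocytes' median. CENPS, a kinetochore and DNA repair protein, was at -0.71 (adjusted p = 0.0206). Of 48 chromatin genes none passed in the sums. Among the 45 tested over single oocytes, 3 were upregulated and 5 downregulated, and 2 and 3 without the deepest oocyte, beside 5.48% and 4.93% of all genes with it and 3.08% and 2.66% without it. CHAF1A, the large subunit of the histone chaperone CAF-1, was at 0.58 (adjusted p = 0.0141) and the histone chaperone ASF1B at 0.64 (adjusted p = 0.0408) over single oocytes without the deepest. The remodeler CHD1L was at -0.99 (adjusted p = 0.00462) and ARID4B, of a histone deacetylase complex, at -0.8 (adjusted p = 0.0161). CXXC1, which binds unmethylated CpG sites, was at 1.1 (adjusted p = 0.0288) with the deepest oocyte, where it stood at 247 CPM, and at 0.59 (adjusted p = 0.287) without it.

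In the V-ATPase and lysosome list, CTSC was the 1 gene of 29 that passed in the sums, beside 0.433% of all genes upregulated, and over single oocytes 2 of 25 were upregulated and 1 was downregulated (1 and 1 without the deepest oocyte), beside 5.48% and 4.93% of all genes (3.08% and 2.66%). CTSB, cathepsin B, was at 1.47 ± 0.34 (adjusted p = 0.0595) in the sums and at 0.46 (adjusted p = 0.0605) over single oocytes without the deepest, which held 2913 CPM when the other 10 oocytes reached at most 829 CPM. ATP6V1C1, a subunit of the proton pump of lysosomes, was at -0.54 (adjusted p = 0.015) over single oocytes without the deepest. No member of the lists that follow in this paragraph passed in the sums. The spindle and centrosome list (49 tested) had 2 upregulated and 3 downregulated members over single oocytes (1 and 2 without the deepest), and the vesicle coat list (49 tested) had 1 and 2 (1 and 1), beside 5.48% and 4.93% of all genes (3.08% and 2.66% without the deepest). Lists of actin (24), chaperones (18), cullins (18), autophagy (15), cleavage and polyadenylation (8), calcium (14), adhesion (12) and DNA damage (25) had between 0 and 3 members called in each direction, beside 5.48% and 4.93% of all genes. Without the deepest oocyte it was between 0 and 2, beside 3.08% and 2.66% of all genes. There actin went from 3 to 1 downregulated, chaperones from 3 to 2, cullins from 2 to 0, and cleavage and polyadenylation from 1 to 0. Among the upregulated members, autophagy went from 2 to 0, cullins from 2 to 1, and DNA damage and calcium from 1 to 0. No member passed over single oocytes among 13 genes of the anaphase promoting complex, 14 of deadenylation and CPE binding, 21 of apoptosis and 6 receptors of BMP, activin and AMH. Beside those shares of all genes, few calls would fall in lists this short in any case.

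Of a list of oocyte and growth genes, 5 could be paired with an ID: BMP15, ACTL8 and BCAR4, which the study's text names, CBLN4, and CTSC, which is described above. BMP15, the oocyte growth factor that acts on granulosa cells, had medians of 1218 CPM (544 to 3003) and 1766 CPM (617 to 2478) in replicate 1 and of 957 CPM (521 to 2160) and 1841 CPM (791 to 2148) in replicate 2. It was not called in the sums (0.32, adjusted p = 0.659), in which the deepest oocyte had the lowest level of its group, 617 CPM. Over single oocytes BMP15 was upregulated, at 0.51 (adjusted p = 0.0244), and at 0.58 without that oocyte (adjusted p = 0.0124). ACTL8, an actin-like protein, was at 1.63 in the sums (adjusted p = 0.152), with 84.2% of its counts in the replicate 1 sum from the deepest oocyte. Without that oocyte it was at 0.6 in the sums (adjusted p = 0.717), and over single oocytes it was at 0.95 with it (adjusted p = 0.162) and 0.62 without it (adjusted p = 0.44). BCAR4 was at -0.03 (adjusted p = 0.964) and CBLN4 at -1.01 (adjusted p = 0.29). Over the alternative fits they ranged from -0.19 to 0.35 and from -1.54 to 0.28, so the direction of both turned.

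Against each of the smaller groups separately, no gene passed in edgeR's test, with 2106 genes at an unadjusted p below 0.05 against 80–89 μm and 1432 against 90–99 μm. Both comparisons share the 100–109 μm sums. CCL25 was 2.54 higher on the log2 scale than at 80–89 μm and 1.75 higher than at 90–99 μm. The values were 1.59 and 1.16 for AKR1A1, 1.81 and 1.19 for CTSC, -1.5 and -1.26 for COX1, and -3.61 and -2.64 for NAALAD2. In replicate 1 the median of CTSC rose from 47.4 CPM at 80–89 μm to 79 CPM at 90–99 μm and 118 CPM at 100–109 μm, which gives its order as a description only. A difference of the contrast between the replicates passed for 1 of 9657 genes over single oocytes.

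**Figure D5:**
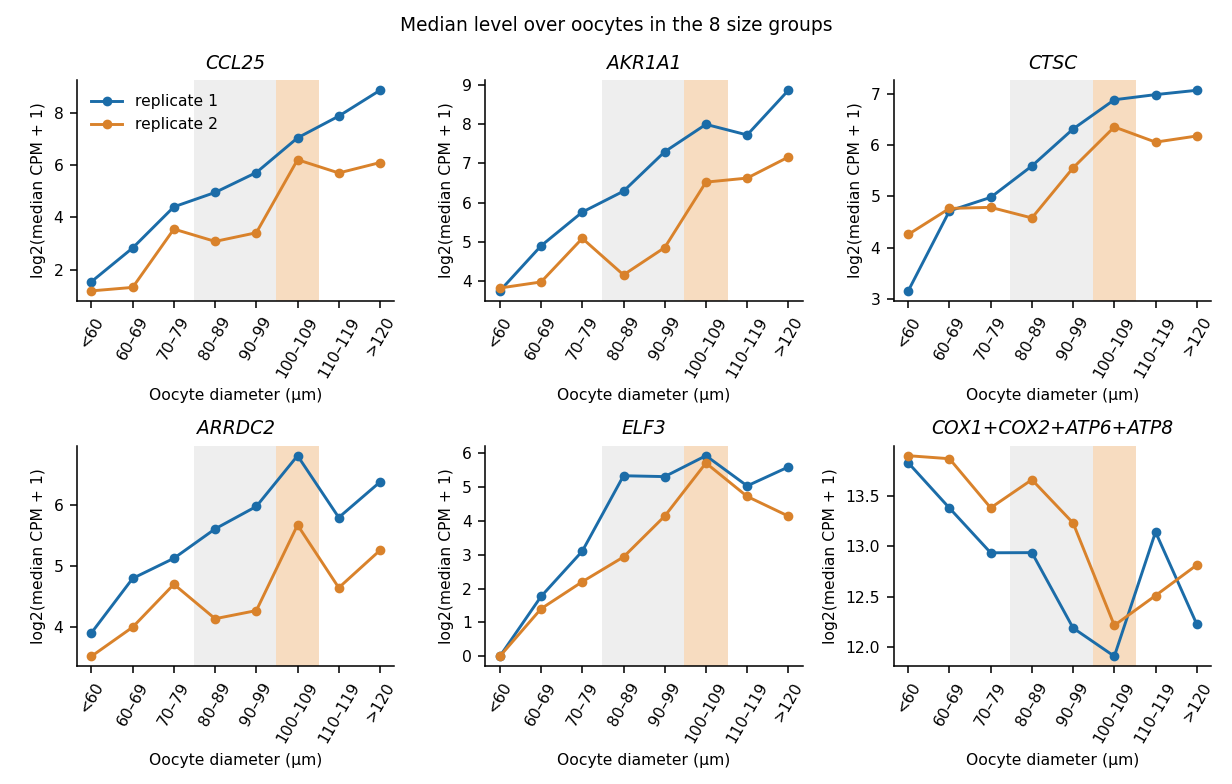
Median level over oocytes, as log2(median CPM + 1) on the vertical axis, in the 8 size groups of the study, by replicate, for 5 upregulated genes and for the summed mitochondrial-genome genes; grey marks 80–99 μm and orange 100–109 μm. CCL25 goes from 1.9 CPM below 60 μm to 463 CPM above 120 μm in replicate 1, and the ARRDC2 and ELF3 medians at 100–109 μm are the highest of the 8 in both replicates.

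Over the 8 size groups, the upregulated genes did not share a course. The CCL25 median above 120 μm was 463 CPM in replicate 1, above the 130 CPM at 100–109 μm, and 67.2 CPM in replicate 2, below the 72.6 CPM at 100–109 μm. ARRDC2 stood at 111 CPM at 100–109 μm in replicate 1 and at 54.4 CPM at 110–119 μm, and in replicate 2 at 49.9 and 24 CPM. The summed mitochondrial-genome level at 110–119 μm was 9040 CPM in replicate 1 and 5834 CPM in replicate 2, each above the 100–109 μm median of its replicate. These are levels with no test.

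Markers of the oocyte and of neighbouring cells were summed in the same way. Of 12 oocyte markers 4 could be paired, and their summed level had a median of 5048 CPM (2402 to 9432) at 80–99 μm and of 5322 CPM (2274 to 7565) at 100–109 μm, with the lowest value in the deepest oocyte (log2 difference of 0.0666, adjusted p = 0.684, permutation test). The 4 paired granulosa markers reached at most 8.42 and 16.1 CPM, and 8 of 45 and 5 of 18 oocytes had none. The 8 paired theca and stroma markers had medians of 16.2 and 13.4 CPM. The 8 paired blood markers had medians of 95 CPM (12.5 to 245) and 134 CPM, of which CSF1R, present in 63 of 63 oocytes, reached up to 230 CPM, and their log2 difference of 0.478 did not pass (adjusted p = 0.0679, permutation test). The 5 paired endothelial markers reached at most 5.76 and 7.29 CPM. None of the paired markers was at 0 in every oocyte, but several were nearly absent, such as COL1A1 (3 counts in 1 of 63 oocytes) and CD34 (1 count in 1). Most counts of the theca and stroma list were of ACTA2 (1194) and COL1A2 (721). The part of the markers in the results above was not tested.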

How the data were processed

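RNA of single oocytes was sequenced as described above. The authors trimmed reads with Trim Galore (version 0.6.6) and aligned them with HISAT2 to the ARS-UCD1.2 assembly. Their deposited table holds raw counts per gene from SeqMonk, neither normalized nor corrected for the replicate. The handling of strand, of overlapping genes and of reads that align more than once is not given in the sources used here. Reads carry no molecular identifiers, so floors cover counting error only.

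The members and gene lists were chosen with earlier results of these data known. Counts of the 23161 lines were summed per gene ID (21218 IDs, of which 1679 stood on more than 1 line). Supplementary tables of the study paired 3593 IDs with a symbol, mostly symbols early in the alphabet, so 2911 of the 14087 tested genes have one. Deposited oocytes outside the study's list entered an alternative only. All 165 listed oocytes were summed by 8 size groups and 2 replicates, filtered with filterByExpr (minimum count 10, minimum total 15), scaled by TMM and fitted with edgeR 4.0.16 (glmQLFit), the contrast being 100–109 μm minus the mean of 80–89 and 90–99 μm, with Benjamini-Hochberg adjustment over all genes and DEGs at 0.05. Deviations of the sums from their group means correlated between groups within a replicate (0.662 to 0.682), and the replicates are separate library preparations, so the replicate was kept as a block. SE is the log2 fold change divided by the square root of F. CPM per oocyte uses TMM sizes, with a pseudocount of 1 on the log2 scale. Single values per oocyte were tested with 100000 permutations of groups within replicate, two-sided, adjusted over 8 tests. Oocytes of 1 animal count as separate samples there. The fits were tested on simulated data. Alternatives used DESeq2 1.42.0 and sva 3.50.0 (R 4.3.3). Other software was limma 3.58.1, Python, numpy, pandas, scipy and matplotlib.

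Named genes were the 10 upregulated and 10 downregulated genes with a symbol, the smallest adjusted p and the same direction in both replicates (next genes up to 5 where fewer were called), the 3 largest changes in each direction, called members of lists and up to 3 abundant members of each, 2 IDs without symbol in each direction, and paired genes of the oocyte and growth list. Genes outside the rule are said to be chosen later. One label of a 100–109 μm oocyte gave a slightly different diameter from the study's list, and the label was used.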

Additional observations from a re-analysis of the deposited data

Results flagged for a closer look

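In groups of 4 to 10 oocytes, 11 of 53 sets of values held an oocyte far from the others, where chance gives about 1 in 20. All were in replicate 2, since the groups of replicate 1 were larger and not examined. At 80–89 μm the highest oocyte had 40448 CPM of summed mitochondrial-genome transcripts (next 21795). In that group other single oocytes stood apart for ACOT8 at 69.1 CPM (next 26), CLU at 104 CPM (next 27.2), ELF3 at 99.4 CPM (next 29.2), ENSBTAG00000002123 at 15 CPM (next 6.79) and ENSBTAG00000008945 at 1.59 CPM (next 0). At 90–99 μm this was so for CCL25 at 32.5 CPM (next 17.2), ELF3 at 58.7 CPM (next 23), ENSBTAG00000001571 at 5.47 CPM (next 1.6) and ENSBTAG00000008945 at 1.6 CPM (next 0). At 100–109 μm ENSBTAG00000008945 stood at 8.71 CPM in 1 oocyte (next 3.43).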

How the results depend on the processing

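No called gene changed direction under an alternative that tested it. The alternatives reuse most of the same oocytes, so a kept direction is no independent support. Single-oocyte alternatives tested at most 56 of the 61 upregulated and 5 of the 9 downregulated genes, and 40 and 2 at 250000 counts per oocyte. The size of the changes moved. Log2 fold changes ran from 1.17 to 2.52 for CCL25, 1.04 to 1.73 for AKR1A1, 0.99 to 1.56 for ACOT8, 0.81 to 1.87 for CTSC and 0.63 to 1.56 for CKB. The share of genes tested that were up- and downregulated was 0.433% and 0.0639% (61 and 9 genes). It was 0% and 0% without the replicate block, although the replicate pairs the sums, and likewise with 80–99 μm as 1 sum and without the deepest oocyte. It rested on 80 and 10 genes with RLE factors and was 2.68% and 0.965% with DESeq2 (378 and 136), 1.71% and 0.312% without the filter (307 and 56), 0.0925% and 0.0277% at 250000 counts per oocyte (10 and 3), 5.18% and 2.35% with the sums of the 3 groups alone (676 and 307), and 0.0142% and 0% with all 179 oocytes (2 and 0). By single oocytes it was 5.48% and 4.93% (529 and 476), after ComBat-seq 4.02% and 3.32% (373 and 308), in replicate 1 alone 1.95% and 0.677% (167 and 58), and in replicate 2 alone 0.0433% and 0.0216% (4 and 2). Alternatives chosen after seeing the data gave 0.0278% and 0.0185% (3 and 2; 250000 counts, without the deepest oocyte), 3.08% and 2.66% (single oocytes without it) and 6.23% and 4.19% (373 and 251; single oocytes at 250000 counts). Leaving out each sum in turn gave 0% to 1.67% upregulated and 0% to 0.195% downregulated: none without replicate 2 of 80–89 μm, replicate 2 of 90–99 μm or replicate 1 of 100–109 μm, 29 and 6 genes without replicate 1 of 80–89 μm, 23 and 7 without replicate 1 of 90–99 μm, and the highest shares without replicate 2 of 100–109 μm. The cause was not tested.

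Total counts passed without the deepest oocyte (log10 difference of -0.214, adjusted p = 0.0404, permutation test). Genes detected differed by -111 in replicate 1 alone and by -169 without thinning. Stromal markers differed by -0.242 (log2) in replicate 1 alone and granulosa markers by 0.0827 in replicate 2 alone.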
